A study of Mus musculus with 12 samples.

Results

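The genes described here are 10 immune checkpoint and costimulation genes that myeloid cells use to address T cells or to restrain themselves: Cd274, Pdcd1lg2, Cd80, Cd86, Vsir, Havcr2, Sirpa, Lgals9, Cd200r1 and Pirb. They were chosen by name as genes of known checkpoint or costimulatory function, with earlier results of these data known, and all 10 are in the table of 18467 genes. Of these, 9 passed the filter on low counts and were tested among 12882 genes, and Pdcd1lg2 did not pass. Bulk RNA-seq was done on macrophages sorted from the femur and tibia marrow of female Albino B6 mice, some of which received E0771 breast cancer cells through the caudal artery at 8 weeks of age and carried bone metastases. General macrophages were sorted as CD11b+F4/80+ cells and niche macrophages as VCAM1+CD163+CCR3+ cells. Both were taken from healthy control mice (normal marrow) and from mice with bone metastases (metastatic marrow), which gives 4 groups of 3 libraries from different mice. Mouse age was recorded as 8 weeks for all 4 groups, healthy controls included, and the age at collection is not given here. In the titles the word general is used of either sort, while the sorting protocol calls the VCAM1+CD163+CCR3+ sort niche-specific, and the sorting markers were used here to tell them apart. The marrow of metastatic mice was flushed whole, so these macrophages were not taken from the tumour lesions alone.

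Checkpoint molecules work in ligand and receptor pairs. PD-L1 (Cd274) and PD-L2 (Pdcd1lg2) on antigen-presenting cells engage PD-1 on T cells and dampen them, while CD80 and CD86 deliver the costimulatory signal through CD28 and are bound by CTLA-4 in competition with it. A second group acts inside the macrophage: SIRPα reads CD47 on a neighbouring cell and inhibits its engulfment, and PIR-B, CD200R1 and TIM-3 carry inhibitory signals inwards. In marrow, macrophages of the erythroblastic island hold developing red cells, clear their expelled nuclei and engulf aged blood cells, a setting in which the CD47 and SIRPα pair is known to set what is engulfed.

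Library totals ran from 13687945 to 30332417 expected counts. Niche normal libraries had the fewest genes at 10 counts or more, 7689, 9005 and 8764, against 9491 to 12658 in the other libraries. They also differed most from each other, with a chi-square per degree of freedom of 418 to 427 between libraries, against 142 to 293 within the other groups. Levels are given as CPM, counts scaled to a common library total, after TMM scaling, so 3 counts, used here as the detection floor, correspond to 0.109 to 0.243 CPM. The 12 macrophage markers summed to 1075 to 1233 CPM in general normal, 795 to 907 in general metastatic, 5062 to 6091 in niche normal and 2288 to 4213 in niche metastatic libraries. That sum holds 5 antigens the cells were sorted on, and Vcam1, Cd163 and Ccr3 alone averaged 2161, 795 and 551 CPM in niche normal libraries, so most of it restates the sort. The 7 markers not sorted on summed to 143 to 205, 88.4 to 227, 758 to 1310 and 428 to 895 CPM in the same order of groups. Other cell types' markers also split by sort. Over the general and the niche libraries respectively, 8 monocyte markers summed to 6314 to 6684 and 1365 to 2043 CPM, and 10 neutrophil markers to 13735 to 22276 and 9434 to 11417 CPM. In the other direction, 8 erythroid markers summed to 12.4 to 100.1 CPM over the general and 489 to 1416 CPM over the niche libraries, and 6 plasma cell markers to 269.9 to 455 and 763 to 4126 CPM. In bulk libraries a sort with fewer cells of a type and a sort with less RNA per cell cannot be told apart, and this holds for every level below.

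Cd274 and Pdcd1lg2 are neighbours on chromosome 19 of the GRCm38 build, with starts 43.5 kb apart in the GENCODE M21 annotation. Cd274 spans chr19:29367455-29388095 and Pdcd1lg2 spans chr19:29410919-29471161, both on the plus strand. A promoter sequence was found for 7 of the 10 genes in the RefSeq promoter table for GRCm38.p6. The 250 bases before the RefSeq start are printed 5′ to 3′ for these neighbours, because their levels lie far apart, and for Lgals9, which holds an interferon-type motif. They lie at chr19:29367188-29367437 (Cd274, plus strand), chr19:29410669-29410918 (Pdcd1lg2, plus strand) and chr11:78984925-78985174 (Lgals9, minus strand), and capitals mark motif matches.
Cd274: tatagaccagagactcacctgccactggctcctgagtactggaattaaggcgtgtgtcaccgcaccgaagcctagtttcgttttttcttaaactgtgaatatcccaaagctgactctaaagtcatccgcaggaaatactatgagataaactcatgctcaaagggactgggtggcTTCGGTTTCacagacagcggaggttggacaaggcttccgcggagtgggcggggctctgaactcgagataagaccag
Pdcd1lg2: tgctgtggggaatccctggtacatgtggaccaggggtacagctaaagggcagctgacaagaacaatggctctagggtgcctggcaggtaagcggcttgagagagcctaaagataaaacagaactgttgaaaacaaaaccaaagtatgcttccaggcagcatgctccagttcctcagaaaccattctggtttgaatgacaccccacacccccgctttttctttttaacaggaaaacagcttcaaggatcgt
Lgals9: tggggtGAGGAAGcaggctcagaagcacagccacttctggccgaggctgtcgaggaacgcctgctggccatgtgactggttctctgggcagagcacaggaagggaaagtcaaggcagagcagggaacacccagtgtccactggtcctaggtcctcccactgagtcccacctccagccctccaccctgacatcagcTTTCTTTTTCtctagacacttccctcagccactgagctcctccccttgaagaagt

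The letters of 3 motifs were searched on both strands: an interferon-stimulated response element, a gamma-activated site (TTCNNNGAA) and a PU.1 core (GAGGAAG). The response element was first searched as GAAANNGAA with a further A at its 3′ end, which 2.98% of 32851 RefSeq promoters of the same length hold and which was found in Lgals9 only among the 7 genes, starting 55 bases before the start. After that result had been seen, the search was repeated with GAAANNGAA alone, which lies within the longer form and is held by 7.13% of promoters. That shorter form was found in Lgals9 and also in Cd274, 76 bases before the start, so the match in Cd274 exists only under the looser definition. The gamma-activated site, held by 7.02% of promoters, was found in none of the 7 genes. The PU.1 core, held by 10.6% of promoters, was found in Lgals9, in Pirb 120 bases before the start and in Havcr2 8 bases before the start. These are matches of letters, and no binding was measured.

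The members spanned a wide range of levels. Per kilobase of merged exons, so that genes can be compared, the mean over 12 libraries was 94.3 CPM for Vsir, 84.9 for Sirpa and 56.9 for Pirb. Lgals9 followed at 22.5 CPM per kilobase and Cd274 at 13.6. Cd86, Cd200r1, Cd80 and Havcr2 had means of 6.91, 6.26, 6.00 and 3.44 CPM per kilobase, and Pdcd1lg2 had 0.644. The 3 highest genes are an inhibitory ligand and a pair of inhibitory receptors, and the classical T cell costimulators lay lower in these libraries.

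**Figure D1:**
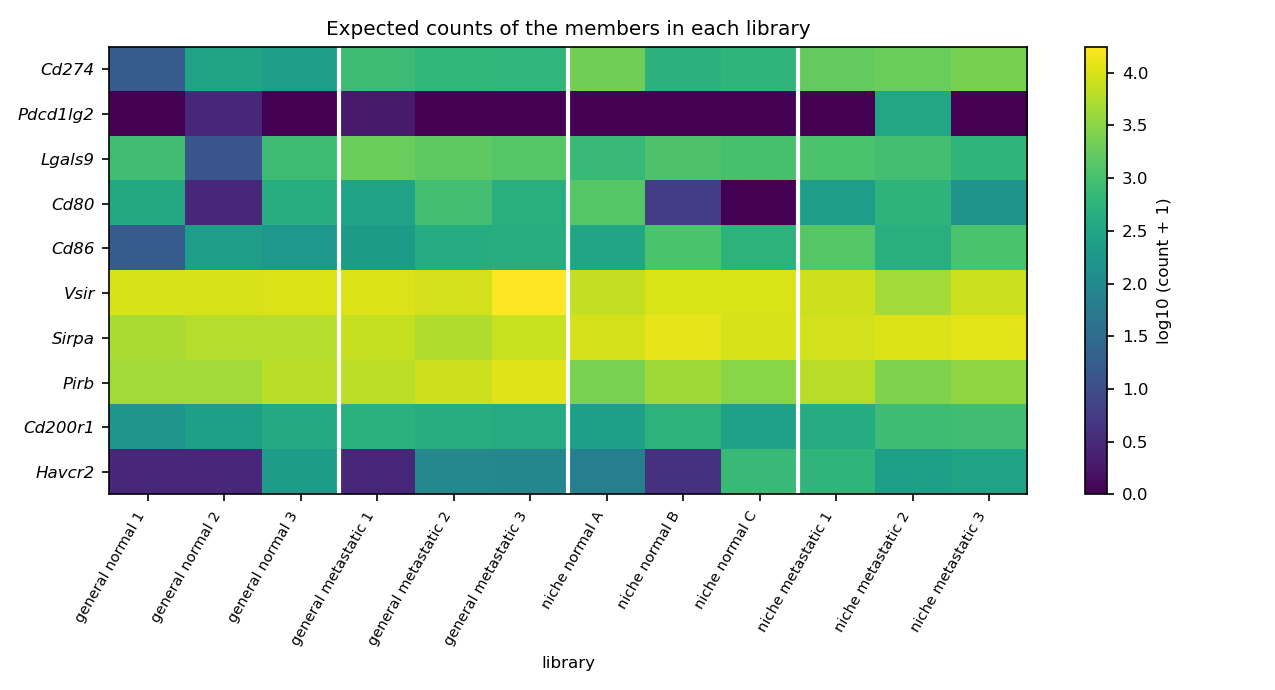
Expected counts of the 10 genes in each of the 12 libraries, coloured as log10 of the count plus 1, with white lines between the 4 groups. Vsir, Sirpa and Pirb are bright in every library, whereas Pdcd1lg2 is dark in 11 libraries and Cd80 and Havcr2 are dark in some libraries of a group and not in others.

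Sirpa was the only member called in any comparison by edgeR, for niche over general macrophages in normal marrow. It encodes SIRPα, the inhibitory receptor for CD47. Its level was 344, 349 and 292 CPM in the general normal libraries, 275, 251 and 283 CPM in general metastatic, 768, 599 and 482 CPM in niche normal, and 461, 462 and 435 CPM in niche metastatic libraries. All 6 niche libraries lay above all 6 general libraries, and the 4 groups formed an order with no overlap between any neighbours: niche normal, niche metastatic, general normal, general metastatic.

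In normal marrow Sirpa was higher in niche than in general macrophages by 0.91 ± 0.23 (SE) on the log2 scale (95% interval 0.42 to 1.40, 1.88-fold), with an adjusted p of 0.0439 by edgeR's quasi-likelihood test. It was the only member called among 9, where 2.47% of all tested genes were called. In metastatic marrow the difference was 0.75 ± 0.23 (95% interval 0.26 to 1.24), with an adjusted p of 0.267 by edgeR, and 0 of 9 members were called against 0.831% of all genes. DESeq2 and scaling by library size alone each called 1, Sirpa. That share is edgeR's. DESeq2 called more of all genes, with its count given in the last paragraph, and the count under library size alone is not given here. The call in normal marrow was close to the threshold: it was kept in 1 of 6 fits that left out a library, the fit without niche normal C, with adjusted p between 0.0263 and 0.196 and log2 differences between 0.73 and 1.06. Over the other settings the adjusted p ran from 0.00425 with DESeq2 to 0.134 with only the 6 libraries of the comparison. The 7 macrophage markers not sorted on and the erythroid and plasma cell markers were also higher in every niche library than in every general one, the monocyte and neutrophil markers lower. Within normal marrow the niche libraries were also higher in B cell (706 to 926 against 36.8 to 56.2 CPM) and T cell markers (79.3 to 104 against 21.7 to 30.5 CPM). The same held for NK cell (14.2 to 84.6 against 0.649 to 5.08 CPM) and stromal and endothelial markers (49.1 to 83.1 against 4.70 to 24.7 CPM). The part of these markers in the difference was not tested.

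**Figure D2:**
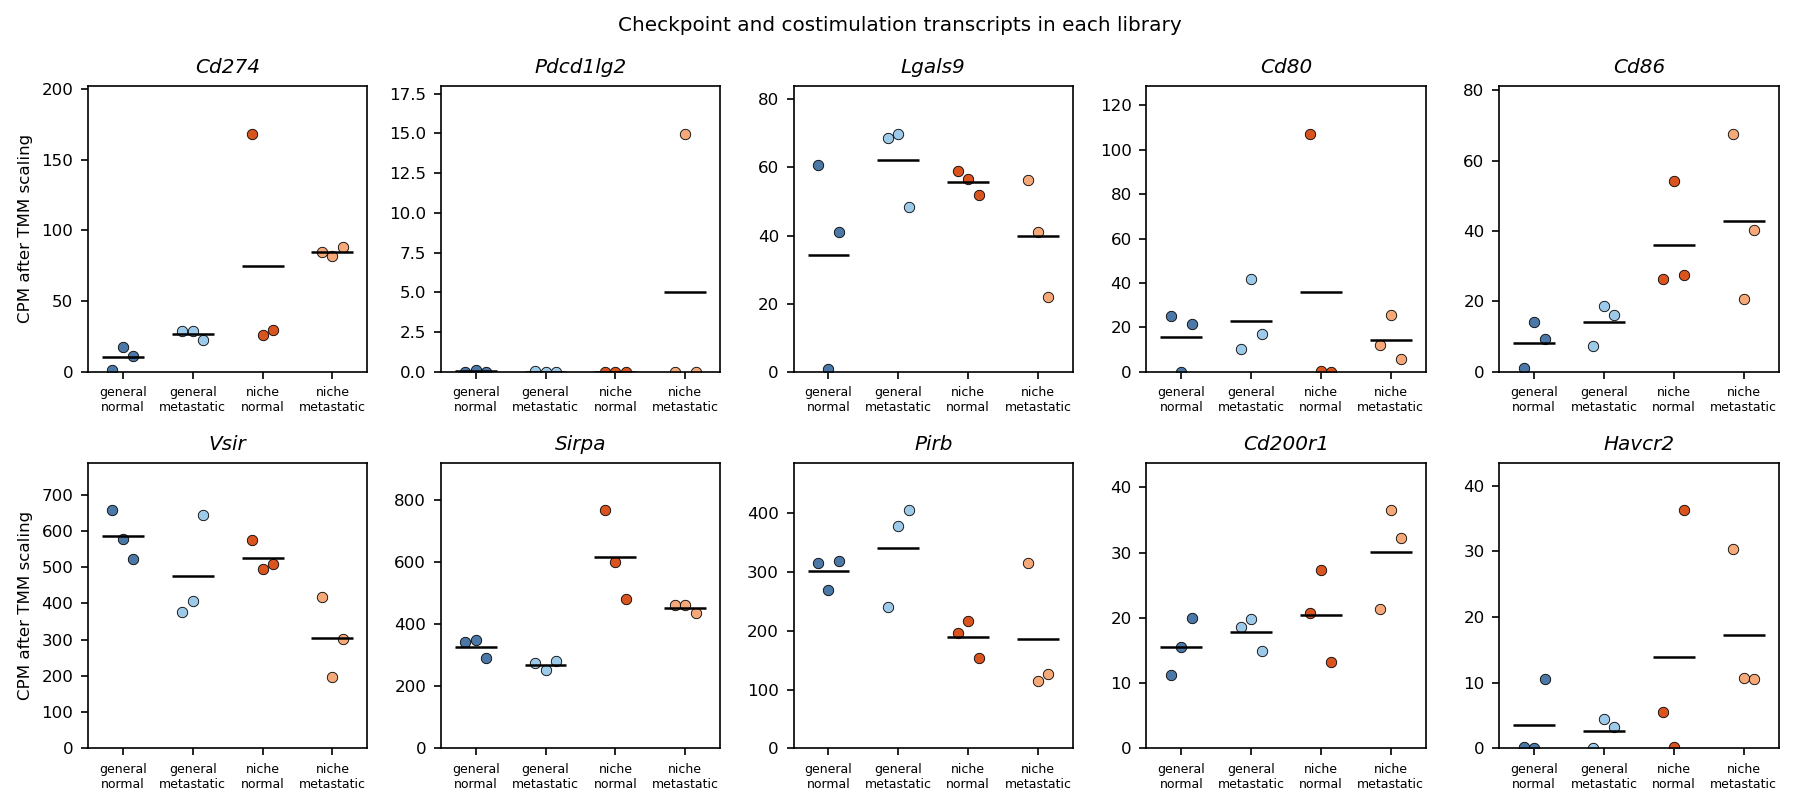
CPM after TMM scaling of each gene in each library (points, 3 per group) with the group mean (line), on a separate linear axis from 0 for each gene. The 6 niche libraries of Sirpa sit between 435 and 768 CPM, all above the general libraries at 251 to 349 CPM, while 1 niche normal library carries most of the Cd274 and Cd80 means of its group.

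The genes whose level followed Sirpa most closely over the 12 libraries were Slc40a1 and Atxn1. Slc40a1 encodes ferroportin, the iron exporter, and its log2 CPM had a Pearson r of 0.96 with that of Sirpa. Its mean level was 384 CPM in general normal, 271 in general metastatic, 2375 in niche normal and 1002 in niche metastatic libraries. Atxn1 had an r of 0.95, with means of 60.9, 36.7, 162 and 100.2 CPM in the same order. These were the highest r among the 8145 tested genes that averaged 10 CPM or more, the points share the same 4 groups, and the values are descriptions.

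Cd274, the PD-L1 gene, had 1.10, 17.9 and 11.5 CPM in general normal, 29.1, 28.7 and 22.4 CPM in general metastatic, 168, 26.4 and 29.7 CPM in niche normal, and 84.9, 81.6 and 88.6 CPM in niche metastatic libraries. The niche libraries lay above the general libraries in each marrow state, and the general metastatic libraries lay above the general normal ones. The niche normal group overlapped both metastatic groups, because niche normal A stood at 168 CPM and the other two below 30 CPM. The niche-over-general difference was 2.88 ± 0.92 (95% interval 0.95 to 4.80, adjusted p = 0.122 by edgeR) in normal marrow and 1.67 ± 0.88 (95% interval −0.17 to 3.51, adjusted p = 0.644) in metastatic marrow. Neither passed the threshold. Without single libraries the difference in normal marrow ranged from 1.48 to 3.56. Cd274 shares 511 of its 3622 exonic bases with the antisense gene AC119228.1, which is not among the genes counted. The strand setting of the counting is not given in the sources used here, so reads within that stretch cannot be assigned with certainty.

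Pdcd1lg2, the PD-L2 gene next to it, was at or under 3 counts in 11 of 12 libraries. The exception was niche metastatic 2, with 343 counts or 14.99 CPM. The other two libraries of that group had 0 counts, so the group mean of 5.00 CPM describes a single library and no fold change is given. The gene overlaps the antisense gene A930007I19Rik, which shares no exonic base with it and ran from 0 to 22.0 CPM.

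Lgals9 encodes galectin-9, a secreted lectin that binds TIM-3 among other glycoproteins. It had 60.9, 0.712 and 41.2 CPM in general normal, 68.7, 69.9 and 48.3 CPM in general metastatic, 58.8, 56.7 and 52.0 CPM in niche normal, and 56.3, 41.0 and 22.0 CPM in niche metastatic libraries. All 4 groups overlapped at least 1 other, and general normal 2 stood apart near 0. The niche-over-general difference was 0.71 ± 0.92 in normal marrow (95% interval −1.22 to 2.63, adjusted p = 0.783 by edgeR) and −0.65 ± 0.92 in metastatic marrow (95% interval −2.57 to 1.27, adjusted p = 1.00). The value in normal marrow was 0.13 without general normal 2, 1.42 without general normal 1 and 2.16 with limma-voom.

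Vsir encodes VISTA, an inhibitory B7-family protein carried by myeloid cells. Its level was 657, 577 and 521 CPM in general normal, 376, 406 and 642 CPM in general metastatic, 575, 494 and 508 CPM in niche normal, and 417, 196 and 302 CPM in niche metastatic libraries. The niche metastatic libraries lay below all niche normal libraries, and groups next to each other in the order of their means overlapped. Vsir lies within Cdh23, a gene of the opposite strand that shares no exonic base with it and ran from 0 to 34.6 CPM. In metastatic marrow the niche-over-general difference was −0.64 ± 0.28 (95% interval −1.23 to −0.05) with an adjusted p of 0.547 by edgeR, and ran from −0.94 to −0.37 with a library left out, the weakest being without general metastatic 3. In normal marrow the difference was −0.15 ± 0.28 (95% interval −0.74 to 0.43).

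The costimulators are Cd80 and Cd86. Cd86 had 1.10, 14.2 and 9.24 CPM in general normal, 7.33, 18.8 and 16.1 CPM in general metastatic, 26.3, 54.3 and 27.6 CPM in niche normal, and 67.7, 20.7 and 40.2 CPM in niche metastatic libraries. The lowest niche library, at 20.7 CPM, was above the highest general library, at 18.8 CPM. The differences of 2.14 ± 1.14 in normal marrow (95% interval −0.24 to 4.53, adjusted p = 0.305 by edgeR) and 1.60 ± 1.12 in metastatic marrow (95% interval −0.74 to 3.95, adjusted p = 0.898) did not pass the test.

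Cd80 had 25.3, 0.119 and 21.7 CPM in general normal, 10.1, 42.0 and 16.9 CPM in general metastatic, 107, 0.249 and 0 CPM in niche normal, and 11.9, 25.3 and 5.80 CPM in niche metastatic libraries. Within niche normal the counts were 1321, 5 and 0, so libraries of 1 group differed by more than any pair of group means. Its fitted differences had standard errors of 1.87 to 1.89 in the population and metastasis comparisons, and none was called. B cells and dendritic cells also carry Cd80 and Cd86. The 7 B cell markers in the table summed to 36.8 to 56.2 CPM in general normal, 1.86 to 25.9 in general metastatic, 706 to 926 in niche normal and 56.1 to 304 in niche metastatic libraries. The 8 dendritic cell markers summed to 13.8 to 27.5, 3.66 to 15.9, 13.9 to 87.3 and 23.4 to 42.3 CPM in the same order. The part of these cells in the Cd80 and Cd86 levels was not tested.

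None of the other inhibitory receptors, Pirb, Cd200r1 and Havcr2, was called in any comparison by edgeR. Pirb, which binds MHC class I, had 316, 269 and 318 CPM in general normal, 241, 378 and 406 CPM in general metastatic, 197, 217 and 154 CPM in niche normal, and 316, 115 and 126 CPM in niche metastatic libraries. In normal marrow the niche libraries lay below the general ones, and in metastatic marrow niche metastatic 1 overlapped them. The differences were −0.67 ± 0.35 (95% interval −1.40 to 0.06, adjusted p = 0.297 by edgeR) and −0.88 ± 0.35 (95% interval −1.62 to −0.14, adjusted p = 0.518). Without niche metastatic 1 the latter was −1.51, with an adjusted p of 0.0550, and over all fits with a library left out it ran to −0.63, with adjusted p up to 0.744. Reads of Pirb may be split with its activating paralogs, of which Pira2 had 2.55 to 202 CPM, and those of Sirpa with Sirpb1a, Sirpb1b and Sirpb1c, so these counts are uncertain to that extent.

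Cd200r1, the receptor for CD200, had 11.2, 15.5 and 19.9 CPM in general normal, 18.6, 19.9 and 14.9 CPM in general metastatic, 20.8, 27.3 and 13.2 CPM in niche normal, and 21.4, 36.5 and 32.2 CPM in niche metastatic libraries. Its niche metastatic libraries lay above all general libraries, with a difference of 0.75 ± 1.09 in metastatic marrow, and its niche normal libraries overlapped the general ones. Havcr2, the TIM-3 gene, had 0.137, 0.119 and 10.5 CPM in general normal, 0.0730, 4.43 and 3.29 CPM in general metastatic, 5.52, 0.149 and 36.3 CPM in niche normal, and 30.4, 10.7 and 10.6 CPM in niche metastatic libraries. It was at or under 3 counts in 4 libraries, and its differences of 1.96 ± 2.20 and 2.73 ± 2.27 had intervals from −2.65 to 6.58 and from −2.02 to 7.47. Such a pattern, with a library at or under 3 counts and another at 100 or more in the same group, occurred in 2 of 9 tested members (Cd80 and Havcr2), and in 46.8% of all tested genes.

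**Figure D3:**
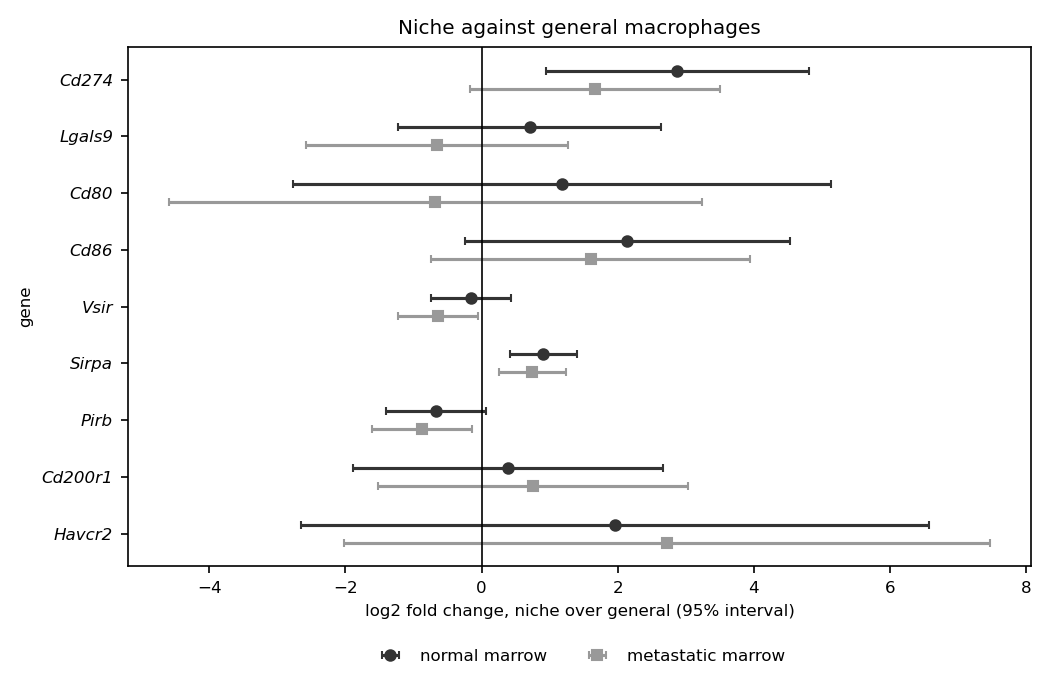
Log2 fold change of niche over general macrophages with its 95% interval for the 9 tested genes, in normal marrow (circles) and metastatic marrow (squares). Sirpa lies above 0 in both marrow states with narrow intervals of 0.42 to 1.40 and 0.26 to 1.24, whereas Cd80 and Havcr2 have intervals that span 0 widely.

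Across the 9 tested members the median niche-over-general difference was 0.91 in normal marrow, where the median of all genes was 0.19, and 0.75 in metastatic marrow, where that of all genes was 0.04. Positive values were found for 7 and 5 of 9, against 56.0% and 51.8% of all genes. In normal marrow 3 members (Cd274, Cd86, Sirpa) had all niche libraries above all general ones and 1 (Pirb) had them below, against 10% and 8.78% of all tested genes. In metastatic marrow 5 (Cd200r1, Cd274, Cd86, Havcr2, Sirpa) lay above and 0 below, against 8.34% and 8.85% of all genes. At an unadjusted p under 0.05, 2 and 3 members passed, against 19.0% and 8.60% of all genes.

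Metastasis went with no called change in any of these genes. Among general macrophages 0 of 9 members were called against 0.0155% of all genes, and among niche macrophages 0 of 9 against 0.00776%, shares that stand for 2 genes and 1 gene. Without niche normal B the latter was 66 genes, and without niche normal C 26. At an unadjusted p under 0.05 the counts were 0 and 1 of 9, against 5.12% and 12.7% of all genes, so that the 1 in niche macrophages is near the background share. DESeq2 and limma-voom also called 0 members in both. The shares called above are edgeR's. DESeq2 called more of all genes in both comparisons, with counts given in the last paragraph, and the counts of limma-voom are not given here. In general macrophages Cd274 differed by 1.40 ± 0.87 (95% interval −0.43 to 3.22, adjusted p = 1.00 by edgeR), and by 0.87 to 2.08 with single libraries left out. The libraries of Cd274 all lay higher and those of Sirpa all lower in metastatic marrow, which makes 1 member each way against 7.27% and 5.64% of all genes. Sirpa differed by −0.28 ± 0.23 (95% interval −0.77 to 0.20). Between the same groups 4 of the 14 marker sums did not overlap. The macrophage (795 to 907 against 1075 to 1233 CPM), B cell (1.86 to 25.9 against 36.8 to 56.2 CPM) and basophil and mast cell markers (34.7 to 47.5 against 70.7 to 125 CPM) were lower in general metastatic libraries, and the NK cell markers were higher (6.81 to 8.27 against 0.649 to 5.08 CPM). The 7 macrophage markers not sorted on overlapped, at 88.4 to 227 CPM in general metastatic against 143 to 205 CPM in general normal libraries. The part of all these markers in the Cd274 and Sirpa values was not tested.

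In niche macrophages the member with an unadjusted p under 0.05 was Vsir, whose mean was 526 ± 43.3 CPM (SD, n = 3) in normal and 305 ± 111 CPM (SD, n = 3) in metastatic marrow. Its difference was −0.79 ± 0.28 (95% interval −1.37 to −0.20), with an adjusted p of 0.381 by edgeR. Sirpa differed by −0.45 ± 0.23 (95% interval −0.93 to 0.04, adjusted p = 0.415). Both lay lower in all 3 metastatic than in all 3 normal libraries, which makes 2 members lower and 0 higher against 7.11% and 5.63% of all genes. Cd274, at 74.8 ± 81.1 and 85.1 ± 3.52 CPM (SD, n = 3), differed by 0.18 ± 0.86, but by 1.59 without niche normal A and by −0.22 without niche normal B. Of the 14 marker sums, 5 were lower in all niche metastatic than in all niche normal libraries. These were the 12 macrophage markers (2288 to 4213 against 5062 to 6091 CPM), the 8 monocyte markers (1365 to 1644 against 1669 to 2043 CPM) and the 7 B cell markers (56.1 to 304 against 706 to 926 CPM). The 10 T cell markers (16.8 to 33.7 against 79.3 to 104 CPM) and the 6 NK cell markers (0.350 to 12.9 against 14.2 to 84.6 CPM) were the others. The 7 macrophage markers not sorted on overlapped, at 428 to 895 against 758 to 1310 CPM. Their part in the Vsir and Sirpa values was not tested.

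**Figure D4:**
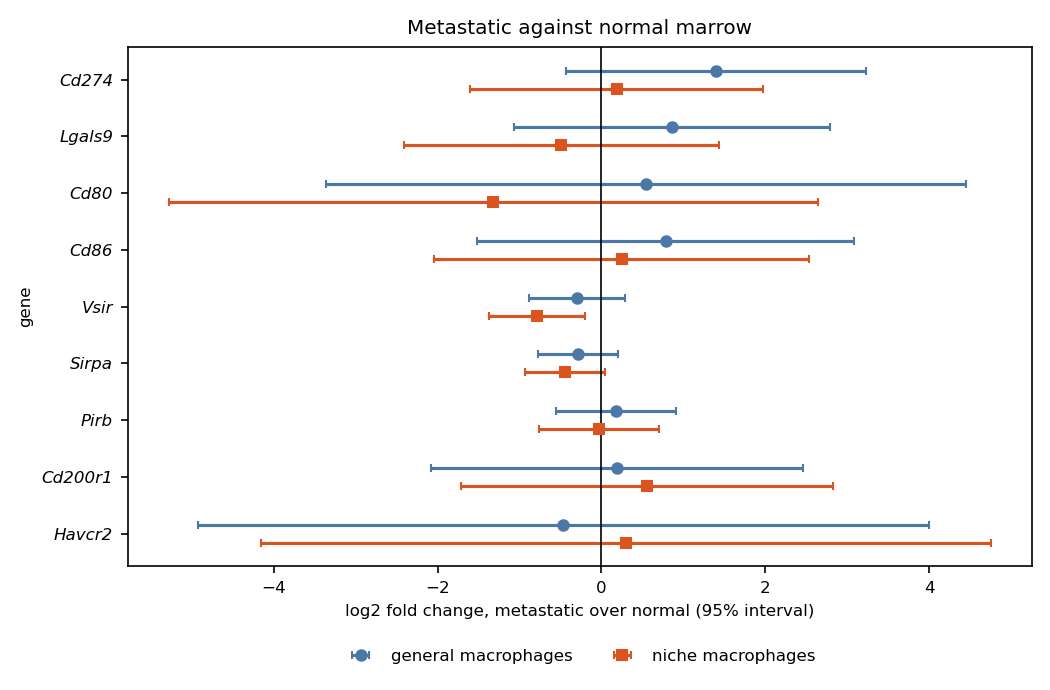
Log2 fold change of metastatic over normal marrow with its 95% interval for the 9 tested genes, in general (circles) and niche (squares) macrophages. Only the niche interval of Vsir, −1.37 to −0.20, lies on 1 side of 0, and no gene was called after adjustment over all tested genes.

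Whether metastasis moved the genes differently in the niche and the general sort was tested as an interaction. No member was called, nor was any of the tested genes (0%), and 0 members had an unadjusted p under 0.05, against 7.89% of all genes. The difference of the metastasis effects was −1.21 ± 1.22 for Cd274 (95% interval −3.76 to 1.34), −0.49 ± 0.39 for Vsir (95% interval −1.31 to 0.34) and −0.16 ± 0.33 for Sirpa (95% interval −0.85 to 0.53). All 3 intervals span 0, so no difference between the sorts was detected for these genes.

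The binding partners of these molecules were measured in the same libraries. Cd47, the ligand of SIRPα, was abundant in every library at 1490 to 2182 CPM, and its niche-over-general difference in normal marrow was −0.11, with an adjusted p of 0.855 by edgeR. Ceacam1, a reported TIM-3 ligand and itself an inhibitory adhesion molecule, fell by 1.40 on the log2 scale in niche against general macrophages of normal marrow, with an adjusted p of 0.0154. Its mean was 696 ± 53.0 CPM in general normal and 264.7 ± 135 CPM in niche normal libraries (SD, n = 3). Selplg, the PSGL-1 gene and a partner of VISTA, ran from 38.4 to 245 CPM, with a difference of −0.98 and an adjusted p of 0.265. Cd28 did not exceed 5.62 CPM, Rgmb, whose protein binds PD-L2, ran from 0.149 to 26.3 CPM, and Cd200 was above 3 counts in 2 libraries only, with a highest level of 13.02 CPM. Of 9 partners listed, 6 were among the genes counted, and Pdcd1, Ctla4 and Igsf11 were not found there under these symbols.

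Of 81 related genes in 6 lists, 62 were in the table and 49 were tested. In normal marrow 1 was called higher in niche macrophages (Siglec1) and 2 lower (Ceacam1 and Cd33), in metastatic marrow 1 higher (Siglec1) and 0 lower, and in the metastasis comparisons and the interaction 0. The 3 of 49 in normal and 1 of 49 in metastatic marrow stand against 2.47% and 0.831% of all tested genes. Siglec1, the sialic acid receptor CD169 of resident macrophages, rose by 3.69 in normal and by 4.20 in metastatic marrow, with adjusted p of 0.00777 and 0.00536 by edgeR. Its mean was 23.4 CPM in general normal, 12.1 in general metastatic, 302 in niche normal and 222 in niche metastatic libraries. Cd33, another receptor of that family, fell by 0.84 in niche macrophages of normal marrow, with an adjusted p of 0.0296. The list medians were −0.08 and −0.17 for niche over general in normal and metastatic marrow, where the medians of all genes were 0.19 and 0.04.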

How the data were processed

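RNA-seq of sorted macrophages was deposited as 1 table of expected counts per gene for 12 libraries, made by the authors; 73.9% of the deposited values are whole numbers. Per the submitters' processing notes, Partek, STAR 2.7.3a, DESeq2 1.40.2 and R 4.3.1 were used with the mm10 build. The counting mode and strand setting are not given in the sources used here. Values were rounded to whole counts. Genes were filtered with filterByExpr, scaled by TMM and fitted over all 12 libraries with edgeR 4.0.16 (glmQLFit, glmQLFTest) in R 4.3.3. P-values were Benjamini-Hochberg adjusted over 12882 genes and called under 0.05. The script was tested on simulated data. The common biological coefficient of variation was 1.30. DESeq2 1.42.0, limma 3.58.1 (voom), other scalings, no filter, left-out libraries and a replicate block were tried as alternatives.

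The members and lists were chosen with earlier results of these data known. Named genes were all 10 members, their direct partners with a library at 10 counts or more, at most 6 further list genes per comparison called with the smallest p, and the 2 genes most alike to each called member. The interferon motif was searched in a longer and, after its matches were seen, a shorter form. The sum of macrophage markers without the sorting antigens was also added after seeing the data. Niche normal columns carry numbers other than those of the sample titles, so these libraries are named A, B and C.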

Additional observations from a re-analysis of the deposited data

How the results depend on the processing

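The members called for niche over general in normal marrow (1) became 0 with RLE scaling (Sirpa adjusted p = 0.0600), with no filter (0.0626) and with only the libraries of the comparison (0.134), and ranged from 0 to 1 with a library left out. In metastatic marrow (0) the number became 1 with DESeq2 (Sirpa 0.79, adjusted p = 0.0418) and with library size only (0.99, adjusted p = 0.0462). Over Sirpa's 6 alternatives in normal marrow the log2 difference stayed between 0.83 and 0.92 (0.91 as reported) while the adjusted p ran from 0.00425 to 0.134, and over its 8 in metastatic marrow from 0.0418 to 0.426.

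Signs reversed for values that were not called. With limma-voom Cd80 gave 1.69 for the difference of the metastasis effects, 3.75 for metastatic over normal in niche and −2.34 for niche over general in normal marrow, and Havcr2 gave 0.74 for metastatic over normal in general macrophages. With library size only, Pirb gave 0.19 for metastatic over normal in niche and Sirpa 0.068 for the difference, and with only its libraries Pirb gave 0.10. With a library left out, the difference of the metastasis effects ranged from −1.89 to 0.19 (Cd274), −2.56 to 6.22 (Cd80), −4.00 to 3.07 (Havcr2), −0.84 to 0.035 (Pirb) and −0.32 to 0.0097 (Sirpa). Metastatic over normal in niche ranged from −0.22 to 1.59 (Cd274), −2.01 to 6.77 (Cd80), −0.26 to 0.66 (Cd86), −0.41 to 2.61 (Havcr2) and −0.66 to 0.22 (Pirb), and in general from −0.22 to 1.07 (Cd80) and −1.09 to 4.28 (Havcr2). Niche over general ranged from −6.91 to 1.77 (Cd80) and −0.35 to 6.72 (Havcr2) in normal marrow and −1.38 to 0.084 (Cd80) in metastatic marrow. Of 324 values with a library left out, 296 kept direction and side of the threshold, and of 297 under other settings, 284 did. Sirpa in normal marrow was the only value called as reported, so no other value had a call to lose. That call was kept in 1 of 6 fits with a library left out and in 3 of 6 other settings. The causes of these changes were not tested.

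Replicate numbers are shared by 3 groups. Same-numbered libraries deviated together with correlations of −0.0074 to 0.034 over 9 pairs, none of them over 0.1, while 11 of 18 correlated best with their own number. Correlations this small cannot exclude a pairing, as libraries within a group differed widely. The main fit used no pairs. With the replicate block 0 members were called in either comparison it allows, 117 genes were called for niche over general in metastatic marrow (104 in the same 9 libraries without the block) and 3 for metastatic over normal in general macrophages (3), and Havcr2 reversed to 0.87 in the latter.

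All-gene counts moved more: the edgeR counts of 318, 107, 2, 1 and 0 (niche over general in normal and metastatic marrow, metastatic over normal in general and niche, and the difference) were 1825, 480, 141, 954 and 410 with DESeq2. Members called by DESeq2 were 1, 1, 0, 0 and 0 in the same order, Sirpa each time. With a library left out the all-gene counts of edgeR ranged from 176 to 402, 66 to 83, 0 to 0, 0 to 66 and 0 to 16. Library size only moved the median of all genes from −0.17 to 0.06 for metastatic over normal in niche, from 0.04 to 0.29 for niche over general in metastatic marrow and from −0.13 to 0.10 for the difference. Pdcd1lg2, Cd80 and Havcr2 were at or under 3 counts in 11, 2 and 4 libraries.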
